A study of Homo sapiens with 12 samples.

Results

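LIN28A, LIN28B, IGF2BP1, IGF2BP2, IGF2BP3, HMGA1, HMGA2, SALL4 and ARID3B are genes of the fetal growth and let-7 network that many tumours and tumour-derived cell lines express. These 9 genes were chosen by name, from 35651 gene identifiers in the tables, and were looked up in every table of unique molecular identifiers (UMIs, random tags that mark each captured RNA molecule once). All 9 are listed in the eHAP1 tables and in the first CEL-seq2 library of single cells, 8 in the other CEL-seq2 libraries and 7 in the LAST-seq tables of HEK293T. The HEK293T tables list no gene at 0 and list genes down to 1 UMI, so that a gene they do not list was taken as 0. Ensembl identifiers were paired with symbols through GENCODE 44. No measured value entered the rule of choice, but the choice was made with earlier results of these data known.

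The study introduced LAST-seq, a single-cell RNA assay that amplifies polyadenylated RNA by T7 transcription directly from the single-stranded molecule, and set it beside CEL-seq2, which copies the RNA into double-stranded DNA before T7 transcription, and SMART-seq V4, which counts reads of amplified cDNA without UMIs. Of 12 samples, 10 came from HEK293T, an established human embryonic kidney line. The HEK293T samples made by LAST-seq were a library of 10 single cells with the A60 spike-in mix (replicate 1), a library of 10 single cells with the ERCC mix (replicate 2), 10 wells of 15 pg total RNA and 10 wells of cell lysate with A60. CEL-seq2 gave 10 single cells with ERCC and A60 (replicate 1), 10 single cells with ERCC (replicate 2) and 10 wells of lysate, and SMART-seq gave 6 wells of single cells, 10 wells of lysate with A60 and 16 wells of lysate with ERCC. The other samples were the haploid human line eHAP1, unedited (WT) and with SCC4KO, a knockout of SCC4, the cohesin loader subunit that annotations name MAU2. Each was pooled from 80 indexed cells in 2 batches, and the study sorted live haploid cells in G1 phase. The knockout was made with Cas9 ribonucleoprotein and expanded from single cells, so the genotype rests on clonal cells. Each genotype is 1 sample in 2 batches, with no untreated or mock-edited clone among the samples.

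LIN28A and LIN28B are RNA-binding proteins that block the maturation of let-7 microRNAs, and let-7 in turn represses LIN28, HMGA2 and the IGF2BP messenger RNAs, so that fetal tissues with high LIN28 have little mature let-7. IGF2BP1, IGF2BP2 and IGF2BP3 bind and stabilise messenger RNAs, IGF2 among them, and HMGA1 and HMGA2 are small chromatin proteins that bend AT-rich DNA. SALL4 is a zinc-finger transcription factor of embryonic stem cells and fetal liver, and ARID3B is an AT-rich DNA-binding protein that works with ARID3A.

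The sequence these genes share is the let-7 target site. The mature let-7a sequence in RefSeq (build GRCh38.p14, encoded at chr9:94175962-94175983 on the plus strand and at other loci) is shown with its seed, bases 2 to 8, in capitals, because all 9 mature forms of the family in the table, let-7a to let-7i and miR-98, carry this seed.
let-7a: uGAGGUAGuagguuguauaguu
A site was any CTACCTC in the 3′ UTR of the MANE or canonical transcript, read on the transcript strand only, and an 8-base site was CTACCTCA. The 9 genes held 18 sites, 10 of them of 8 bases. One site of each gene is given to show that they share it, with the matched bases in capitals, in build GRCh38.
LIN28A, chr1:26427341-26427370, plus strand: ttggagtgcacagcctattgaaCTACCTCA
LIN28B, chr6:105078805-105078834, plus strand: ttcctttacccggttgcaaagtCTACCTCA
IGF2BP1, chr17:49051054-49051083, plus strand: gcaatgctgtgtgcgaagtaaaCTACCTCA
IGF2BP2, chr3:185644220-185644249, minus strand: cgagaaaaacacacagaagaagCTACCTCA
IGF2BP3, chr7:23311795-23311824, minus strand: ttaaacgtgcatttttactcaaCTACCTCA
HMGA1, chr6:34245821-34245850, plus strand: tccatttttcctctgttcacaaaCTACCTC
HMGA2, chr12:65963293-65963320, plus strand: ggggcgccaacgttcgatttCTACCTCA
SALL4, chr20:51782923-51782952, minus strand: gggtgtgaaagctttaatttatCTACCTCA
ARID3B, chr15:74598093-74598122, plus strand: aatgtttatatttcaataaacctCTACCTC

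Among 19224 protein-coding genes with such a 3′ UTR, 1868 (9.72%) held a site and 719 (3.74%) an 8-base site, against 9 of 9 and 7 of 9 here. The share with a site rose with length, to 9.05% at 1 to 2 kb, 14.9% at 2 to 4 kb and 31.5% over 4 kb, the length classes of the 9 genes. LIN28B, IGF2BP1 and HMGA2 held 4 sites each. Of the 19224 genes, 12 (0.0624%) had 4 or more, with 0.0531% at 2 to 4 kb and 0.417% over 4 kb. Several of the 9 genes are textbook let-7 targets, so that these counts describe the choice of genes, and a match of letters is not evidence that let-7 binds. The sites lay at different distances from the end of the message, which matters to assays that read the 3′ end. In ARID3B the site began 2342 bases into a 3′ UTR of 2357, and in IGF2BP1 the first began 1632 bases into 6701. HMGA2 is the gene whose 3′ UTR depends most on the isoform, with 7 annotated lengths, 2999 bases in the MANE form and 7421 in the longest.

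UMIs per well were similar in both HEK293T single-cell assays, 82596 to 190557 by LAST-seq and 80558 to 195438 by CEL-seq2, and were 62816 to 130568 in the LAST-seq lysate and 15-pg wells and 74047 to 123213 in the CEL-seq2 lysate. They spanned 18022 to 926415 in 148 WT cells and 44979 to 320432 in 153 KO cells, and SMART-seq wells held 747676 to 818813 reads. Gene reads per well had medians of 699964.5 and 690132 in the LAST-seq single-cell replicates and 409901 in CEL-seq2 replicate 1. The single-cell assays were thus not matched in gene reads, and no read counts of CEL-seq2 replicate 2 were used. The eHAP1 values behave as adjusted values and not as raw UMIs. Among genes with at least 10 cells at 1 and at least 10 cells at 3 or more, 39.7% and 67.3% had no cell at 2 in WT batches 1 and 2, and 65.4% and 45.3% in KO. With the limit lowered to 5 cells the same share was 37.0 to 65.0% in eHAP1 and 1.99% in the LAST-seq HEK293T cells. The 2 batches of a genotype also differed by a median of 0.0766 (WT) and 0.0742 (KO) on the log2 scale, where counting error alone gives 0.0734 and 0.0737, while the HEK293T LAST-seq replicates differed by 0.198 with 0.0932 from counting. The 2 eHAP1 batches are therefore not independent replicates, and no interval is given for their values. Of the HEK293T markers, the neurofilament gene NEFL was above 0 in all 7 HEK293T UMI libraries, at 9.94 to 82.8 CPM (UMIs of a gene per 1000000 gene UMIs of the library), and had no value above 0 in WT and 7.93 and 14.5 in KO. The kidney gene PAX8 was at 0 in all but 1 of the HEK293T libraries, and PAX2 at 0 in all but 2 of them, so that these defining kidney markers were at or near 0. PAX2 stood at 14.9 and 16.0 in WT and 27.04 and 25.26 in KO. Of 8 blood markers analysed, chosen because eHAP1 descends from a leukaemia line, 3 were above 0 in WT (22.7 and 13.6 summed) and 5 in KO (23.0 in each batch). PTPRC, GATA1 and SPI1 had no value above 0 in the 4 eHAP1 batches. The same markers summed to 27.4 and 24.5 in the LAST-seq HEK293T cells, so that they did not set eHAP1 apart. GATA2 held most of the WT sum, at 15.5 and 10.7, and was at 20.4 and 13.3 in those HEK293T cells.

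Levels of different genes were compared only per length, as SMART-seq RPKM, the reads of a gene per kilobase of its merged exons, scaled to a common total. In this measure 6 single-cell wells were near-identical to 6 wells of the ERCC lysate sample and 3 pairs of wells matched within the A60 lysate sample, and each such well was counted once. The 6 wells labelled as single cells therefore may not be separate material, and they are given as labelled. HMGA1 led in each sample, at 28.2 RPKM in the single-cell wells and 72.1 and 66.0 in the lysates. LIN28B followed in the lysates, at 9.39 and 11.3, and stood at 2.44 in the single-cell wells. IGF2BP1 had 2.65, 4.13 and 5.27, IGF2BP2 1.07, 3.24 and 4.85, and IGF2BP3 2.03, 2.54 and 1.70 in the same order of samples. LIN28B and IGF2BP1 changed places between the single-cell wells and the lysates, as did IGF2BP2 and IGF2BP3, so that these neighbours are not ordered. HMGA2 was level across samples at 0.935, 0.979 and 1.05, with the reads divided over 15070 bases of merged exon. ARID3B had 0, 0.489 and 0.527, and SALL4 and LIN28A were listed at 0 in 2 of the 3 samples and at 0.158 and 0.0328 in the ERCC lysate.

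Of the LIN28 pair, LIN28B was detected in all 11 UMI libraries and batches. The 10 LAST-seq cells of replicate 1 held 3, 3, 4, 4, 5, 6, 8, 10, 11 and 11 LIN28B UMIs, and those of replicate 2 held 2, 5, 9, 9, 10, 12, 13, 14, 14 and 15, so that each of these 20 cells had at least 2 UMIs. On a common scale this came to 45.6 CPM (95% exact Poisson interval 35.2 to 58.1, counting error only, as in every interval here) and 68.2 (55.7 to 82.7). CEL-seq2 gave 70.8 (58.2 to 85.3) and 72.8 (59.6 to 88.1). Wells of pooled material held less, at 28.9 (19.7 to 40.7) in 15-pg RNA and 28.8 (18.3 to 43.2) in lysate by LAST-seq and 37.8 (25.9 to 53.4) in lysate by CEL-seq2, and only the first LAST-seq replicate of single cells had an interval that overlapped that of its pooled material. In eHAP1 it stood at 26.5 and 22.3 in WT and 21.0 and 20.5 in KO, with a median of 3 per cell in both WT batches. LIN28A had no UMI in the 40 LAST-seq HEK293T wells (4841602 UMIs, an upper limit of 0.620 CPM) and 1 UMI in the CEL-seq2 wells. Its eHAP1 values summed to 0, 19, 3 and 2 in WT batches 1 and 2 and KO batches 1 and 2.

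The 3 IGF2BP genes differed in which assay and line they appeared in. IGF2BP1 stood at 75.1 (61.5 to 90.7) and 76.8 (63.5 to 92.2) CPM in LAST-seq HEK293T cells, at 215 (193 to 239) and 184 (163 to 208) by CEL-seq2, and at 69.7 and 70.3 in WT eHAP1. IGF2BP2 stood at 27.4 (19.5 to 37.4) and 15.2 (9.66 to 22.9) by LAST-seq and at 90.1 (75.8 to 106) and 66.6 (54.0 to 81.3) by CEL-seq2, with 31.5 and 32.4 in WT. The intervals of the 2 assays did not overlap for either gene. IGF2BP3 is not listed, and so had no UMI, in any of the 40 LAST-seq HEK293T wells, and had no read in the read tables of the 2 LAST-seq single-cell libraries. In CEL-seq2 it was in 9 of 10 cells of replicate 1, with 0, 1, 2, 2, 3, 4, 5, 5, 6 and 7 UMIs, and in 10 of 10 cells of replicate 2, with 1, 1, 2, 3, 3, 4, 6, 6, 11 and 12. This gave 22.5 (15.7 to 31.3) and 33.7 (24.9 to 44.5) CPM, with 36.7 (24.9 to 52.0) in the CEL-seq2 lysate, and SMART-seq single-cell wells held 85 reads of it. IGF2BP3 was thus detected in HEK293T by CEL-seq2 and SMART-seq and not by LAST-seq. Its exons overlap MALSU1 on the opposite strand, and whether the counting used strand is not given in the sources used here.

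The HMGA genes were present in every cell of both lines by LAST-seq. HMGA1 had 273 (247 to 302) and 301 (274 to 330) CPM in LAST-seq HEK293T cells, 293 (267 to 322) and 188 (166 to 211) by CEL-seq2, and 768 and 786 in WT eHAP1. HMGA1 ranged over 23 to 66 and 31 to 69 UMIs per cell in the LAST-seq replicates and 4 to 73 and 13 to 40 in CEL-seq2. HMGA2 showed the reverse assay pattern to the IGF2BP genes, with 15, 19, 23, 24, 25, 26, 31, 33, 39 and 41 UMIs in LAST-seq replicate 1 and 1, 2, 3, 5, 6, 7, 7, 9, 12 and 14 in CEL-seq2 replicate 1. The lowest LAST-seq cell lay above the highest CEL-seq2 cell, also in replicate 2 (18 to 39 against 1 to 10). Its levels were 194 (172 to 218) and 181 (160 to 204) by LAST-seq, 42.5 (32.8 to 54.0) and 39.8 (30.3 to 51.5) by CEL-seq2, and 127 and 125 in WT. No HMGA1 pseudogene listed had more than 2 UMIs in a library.

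SALL4 was near its detection limit in LAST-seq HEK293T cells, with 3 UMIs in each replicate, all in separate cells, or 2.10 (0.434 to 6.15) and 1.99 (0.410 to 5.81) CPM, and 11 UMIs in the lysate (13.8, 6.88 to 24.7). CEL-seq2 gave 56 and 37 UMIs, or 36.0 (27.2 to 46.8) and 25.4 (17.9 to 35.0), which were unevenly spread over wells as described further on. ARID3B was in every LAST-seq HEK293T cell, with 1 to 10 UMIs in replicate 1 and 2 to 5 in replicate 2, or 42.1 (32.1 to 54.2) and 21.2 (14.5 to 29.9) CPM. The intervals of the 2 LAST-seq replicates did not overlap for ARID3B. In WT eHAP1, SALL4 stood at 8.41 and 3.90 and ARID3B at 62.1 and 64.8.

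**Figure D1:**
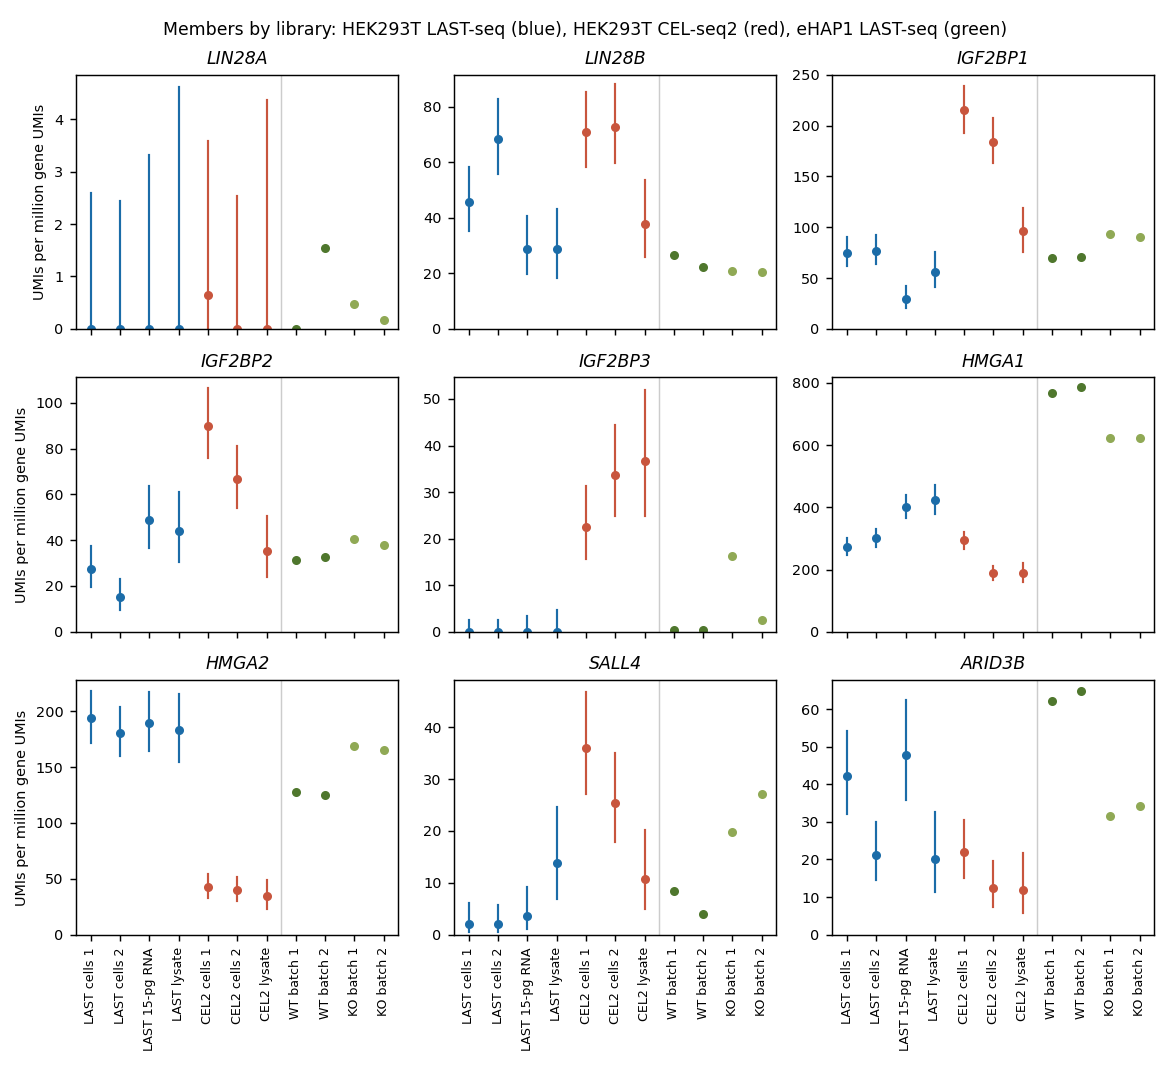
Level of each of the 9 genes in 11 UMI libraries and batches, in CPM, by LAST-seq in HEK293T (blue), CEL-seq2 in HEK293T (red) and LAST-seq in eHAP1 (dark green WT, light green KO), with 95% exact Poisson intervals for HEK293T as vertical lines and none for the adjusted eHAP1 values. HMGA2 is higher in all 4 LAST-seq HEK293T libraries (181 to 194) than in the 3 CEL-seq2 libraries (34.3 to 42.5), and IGF2BP3 is at 0 in the 4 LAST-seq HEK293T libraries.

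The first comparison set HEK293T against WT eHAP1, both by LAST-seq. HMGA1 was lower in HEK293T, LIN28B leaned higher, and IGF2BP1 was at nearly the same level. With 1 sample of eHAP1 there is no test, and a gene was called when every HEK293T library was at least 2-fold above, or below, every WT batch, with 0.5 UMI added to each sum. Of 17500 genes with at least 10 UMIs, 1984 (11.3%) were called higher and 2240 (12.8%) lower in HEK293T, in all 24.1%. Genes not listed for WT were taken as 0, and the WT list looks filtered, as described below for YOD1. The share called higher may therefore hold genes that such a filter removed, which was not tested. TMM scaling, which lowered every log2 ratio by 0.24, gave 1448 higher and 2786 lower. Of the 8 genes of the set tested, 1 was called, HMGA1, which was 2.71-fold lower in HEK293T (log2 -1.44). HEK293T counts are UMIs as deposited and eHAP1 values are adjusted, so that a ratio between them also holds that step, whose part was not tested. The eHAP1 cells were also sorted for haploid G1 phase and pooled from 80 indexed cells. HEK293T cells came in pools of 10, and the study names no phase gate for them. Line, cell-cycle phase and pooling thus cannot be told apart in this comparison.

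LIN28B was 2.34-fold higher in HEK293T on the means of 56.9 and 24.4 CPM, with a log2 ratio of 1.21 that ranged from 0.79 to 1.62 over the pairings of libraries. ARID3B went the other way by 2.00-fold (log2 -1.07, from -1.59 to -0.55), and SALL4 rested on 6 UMIs in HEK293T (log2 -1.28). Neither LIN28B nor ARID3B was past 2-fold in every pairing. HMGA2 had a log2 ratio of 0.57, IGF2BP2 of -0.62 and IGF2BP1 of 0.12, which turned to -0.12 with TMM factors. IGF2BP3 had a summed value of 8 in WT and 0 UMIs in HEK293T and was not among the genes tested.

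Beside the 24.1% of all genes called, 18.5% of the let-7 and LIN28 pathway, 35.5% of other known let-7 targets and 46.2% of other oncofetal genes were called. In the pathway 2 of 27 genes were higher in HEK293T and 3 lower, with a median log2 ratio of 0.26 against 0.00 over all genes. TUT4, the uridylyl transferase that LIN28 recruits to let-7 precursors, was at 54.0 and 40.4 CPM in HEK293T and 13.3 and 12.8 in WT. TNRC6C and TNRC6B, scaffold proteins of microRNA silencing, were 3.41- and 3.36-fold lower in HEK293T. Of 31 other known let-7 targets tested, 8 were higher and 3 lower (median 0.10). Among them YOD1, a deubiquitinase, had 61 and 87 UMIs in HEK293T and is not listed in the WT table. That table was read as 0 for such genes, but it lists fewer genes with a value in 1 cell (319) than in 2 cells (979), as a filtered table would, so that no fold is given. PLAGL1, a zinc-finger factor from an imprinted locus, had 32.3 and 38.4 CPM against 0.407 and 0.163, and the cyclin CCND1 13.3 and 8.61 against 0.136 and 0.163. Of 13 other oncofetal and pluripotency genes tested, 6 were called lower and 0 higher (median -2.05). The imprinted gene PEG10 was at 0 in HEK293T against 880 and 892 CPM in WT, at least 868-fold lower, and CD24, a surface glycoprotein, at 0 against 72.2 and 71.4, at least 70.1-fold lower. The imprinted noncoding RNA H19 had 3 and 0 UMIs against 34.9 and 35.4 CPM. The lists overlap in no gene with the 9 described here, and what sets their levels was not tested.

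The second comparison asked how far the assay sets the measured level, with the 2 LAST-seq and 2 CEL-seq2 libraries of HEK293T single cells. HMGA2 was higher by LAST-seq, and IGF2BP1, IGF2BP2, IGF2BP3 and SALL4 were lower. Of 11271 genes tested by edgeR's quasi-likelihood test on library sums (adjusted p below 0.05), 1275 (11.3%) were higher by LAST-seq and 1675 (14.9%) lower, in all 26.2%. Of the 8 genes of the set tested, 1 was higher and 4 were lower. The labels do not say whether replicates came from separate cultures, so that p-values measure the spread between these libraries. TMM factors raised every log2 ratio by 0.32 relative to total UMIs.

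HMGA2 had a log2 ratio of 2.50 (SE 0.30, edgeR adjusted p = 0.000905), and 4.55-fold more CPM by LAST-seq. IGF2BP1 had a log2 ratio of -1.07 (SE 0.28, edgeR adjusted p = 0.0190) and IGF2BP2 of -1.54 (SE 0.40, edgeR adjusted p = 0.0202). IGF2BP3 passed with an edgeR adjusted p of 0.00314 and was at least 27.3-fold lower by LAST-seq, from the upper limit that 0 UMIs in 20 cells allow (1.02 CPM) and 27.9 CPM in the 20 CEL-seq2 cells. The IGF2BP1 call was lost without LAST-seq replicate 1 (-1.07) or replicate 2 (-1.01), and the IGF2BP2 call without LAST-seq replicate 2 (-1.11). LIN28B had a ratio of -0.03 (SE 0.33, edgeR adjusted p = 0.964), whose sign changed in 3 alternatives. HMGA1 (0.59, SE 0.29, edgeR adjusted p = 0.158) and ARID3B (1.23, SE 0.52, edgeR adjusted p = 0.111) did not pass, and HMGA1 did without CEL-seq2 replicate 1 (0.83). LIN28A had 1 UMI in all and was not tested.

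The lysate libraries, 1 by each assay and so without a test, kept the direction for HMGA2, at 183 CPM (155 to 215) by LAST-seq and 34.3 (23.0 to 49.3) by CEL-seq2. IGF2BP3 was at 0 UMIs by LAST-seq and 31 by CEL-seq2 in lysate, and IGF2BP1 at 56.4 and 95.8 CPM. IGF2BP2 had 43.9 (30.6 to 61.0) and 35.5 (23.9 to 50.7), and SALL4 13.8 (6.88 to 24.7) and 10.6 (4.87 to 20.2). For IGF2BP2 and SALL4 the intervals of the assays overlapped in lysate while they did not in single cells.

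The SALL4 UMIs of CEL-seq2 followed the well barcode. The 3 CEL-seq2 libraries use the same 10 well barcodes, and in barcode order the wells held 20, 21, 0, 5, 1, 1, 0, 1, 7 and 0 SALL4 UMIs in replicate 1, 9, 11, 1, 3, 1, 1, 1, 2, 7 and 1 in replicate 2, and 3, 4, 0, 1, 0, 1, 0, 0, 0 and 0 in the lysate. The wells hold different cells in the 2 single-cell libraries and lysate in the third. The first 2 barcodes held 73.2%, 54.1% and 77.8% of the SALL4 UMIs of the libraries but 15.7%, 15.9% and 23.7% of all their UMIs. Pearson's r over the 10 barcodes between the 2 single-cell libraries was 0.977 on the level in CPM, a description over wells that share a barcode, and 14 of 10475 genes (0.134%) had an r as high, with a median of -0.02 over all genes. Against the lysate r was 0.854 and 0.737. Without these 2 barcodes, an alternative chosen after seeing the data, SALL4 stood at 11.4 and 13.9 CPM in the CEL-seq2 cells, and its log2 ratio moved from -3.53 (SE 0.64, edgeR adjusted p = 0.00504) to -2.30 (edgeR adjusted p = 0.0395). The level of SALL4 by CEL-seq2 thus depends by more than 1.5 times on those 2 wells. The other called genes kept their calls in that alternative. What ties SALL4 UMIs to a barcode was not tested.

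**Figure D2:**
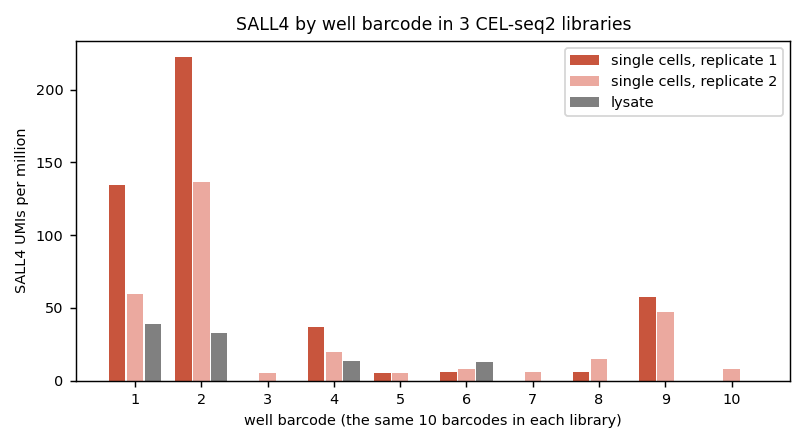
SALL4 level in CPM in each of the 10 well barcodes of 3 CEL-seq2 libraries of HEK293T, single cells of replicate 1 (red), single cells of replicate 2 (pink) and lysate (grey). The first 2 barcodes are the highest in each library and hold 73.2%, 54.1% and 77.8% of its SALL4 UMIs.

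Of the genes tested, 37.5% of the let-7 and LIN28 pathway, 10.7% of other let-7 targets and 14.3% of other oncofetal genes were called, beside 26.2% of all genes. In the pathway, 1 of 24 genes tested was higher by LAST-seq and 8 were lower (median -0.46 against -0.06 over all genes). TNRC6B was at 26.7 and 26.5 CPM by LAST-seq and 380 and 295 by CEL-seq2 (log2 -3.34, SE 0.30, edgeR adjusted p = 0.000277). DICER1, which cuts let-7 precursors, had a log2 ratio of -2.66 (edgeR adjusted p = 0.00149), and TUT7, a uridylyl transferase akin to TUT4, of -2.46 (edgeR adjusted p = 0.0133). Of 28 other let-7 targets, SLC20A1, a phosphate transporter (1.49), and RRM2, a ribonucleotide reductase subunit (1.17), were higher and CCND1 (-2.49) was lower. Of 7 other oncofetal genes tested, PODXL, a sialomucin of stem cells, was lower (-1.99) and 0 were higher.

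Since both UMI assays start at the poly-A tail, the 3′ UTR is the part of these transcripts that they mostly read. Over 9560 protein-coding genes tested, the log2 ratio of LAST-seq to CEL-seq2 fell as the longest annotated 3′ UTR grew, with Spearman's rho of -0.171 across genes, which are not independent (from -0.201 to -0.121 over the 4 pairings of single libraries). The median ratio was 0.24 under 0.5 kb (1570 genes), 0.12 from 0.5 to 1 kb, 0.10 from 1 to 2 kb, -0.10 from 2 to 4 kb and -0.35 over 4 kb (1614 genes), and the share called lower by LAST-seq rose from 9.11% to 16.7% between the shortest and the longest. The 9 genes did not share one pattern against length. Of the 3 with a 3′ UTR over 4 kb, IGF2BP1 (6701 bases) lay below the median of its length class, above 26.3% of the genes in it, LIN28B (4549 bases) lay above 63.3%, and HMGA2 (7421 bases) lay above 99.4%. IGF2BP2 (2401 bases) and ARID3B (2357 bases) have nearly the same 3′ UTR length and lay above 12.2% and 92.3% of the genes from 2 to 4 kb. IGF2BP3 (2153 bases), at 0 by LAST-seq, had no gene of that class below it. SALL4 (1934 bases) lay above 2.68% and HMGA1 (1347 bases) above 69.8% of the genes from 1 to 2 kb. In this set of genes the length of the 3′ UTR thus did not order the assay ratio.

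**Figure D3:**
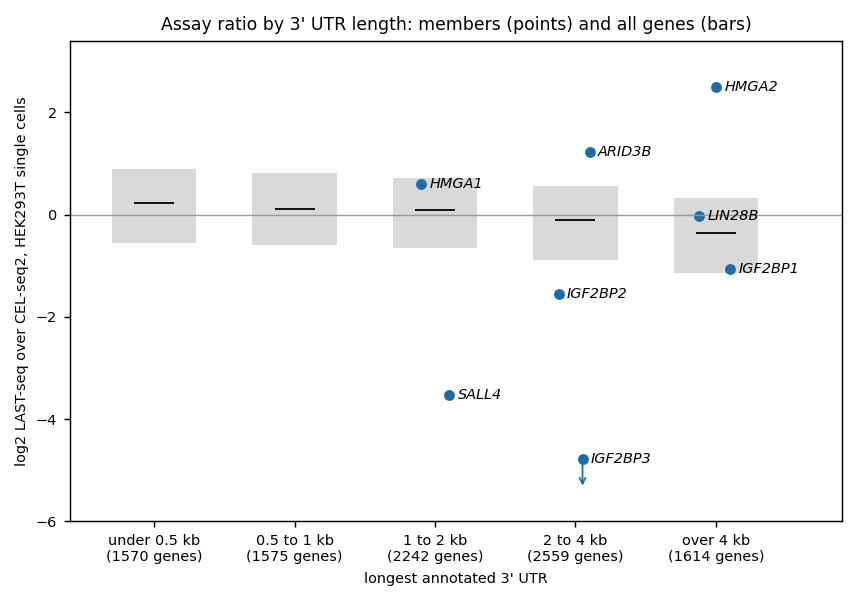
Log2 ratio of LAST-seq to CEL-seq2 in HEK293T single cells (vertical axis) in 5 classes of longest annotated 3′ UTR (horizontal axis), with the middle 50% of all protein-coding genes of a class as a grey bar, its median as a black line and genes of the set as blue points placed side by side for legibility. IGF2BP3 is drawn at its bound with an arrow downward. HMGA2 (2.50) stands above the bar over 4 kb, whose median is -0.35.

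The third comparison set SCC4 KO against WT eHAP1 between batches of the same number. The labels do not say that such batches were made together, so that this pairing is a convention. SALL4 and IGF2BP3 were higher in KO in both batches, by amounts that differed between batches. Another 6 genes stayed within 2-fold, and LIN28A, on low sums, went in opposite directions. MAU2, the targeted gene, was at 44.2 and 41.2 CPM in WT and at 9.17 and 14.5 in KO, 4.82-fold lower in batch 1 and 2.85-fold lower in batch 2. It had a value above 0 in 33 of 77 and 70 of 76 KO cells, so that its transcript was reduced and not absent. With 1 sample of each genotype there is no test, and a gene was called when KO was past 2-fold of WT in the same direction in both batches. Of 18848 genes, 1514 (8.03%) were called higher in KO and 1454 (7.71%) lower, in all 15.7%. A gene listed for a single genotype was taken as 0 in the other, and the lists of both look filtered. How many calls this made was not tested. Of the 9 genes of the set, 2 were called higher and 0 lower. With 2-fold required in every pairing of KO and WT batches, 1209 genes were higher and 1119 lower, and SALL4 and IGF2BP3 kept their calls.

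SALL4 went from 8.41 to 19.7 CPM in batch 1 (2.35-fold) and from 3.90 to 27.1 in batch 2 (6.96-fold). Values above 0 were found in 48 of 73 WT and 51 of 77 KO cells in batch 1, and in 33 of 75 WT and 75 of 76 KO cells in batch 2. In batch 1 the share of cells with SALL4 was alike in both genotypes and the sum differed, with a value of 6 or more in 5 KO cells and 0 WT cells. In batch 2 the median cell went from 0 to 4. The 2 genotypes overlapped in single cells in both batches, from 0 to 3 in WT and 0 to 8 in KO in batch 1. These adjusted values have gaps, with 30 cells at 1, 0 at 2 and 13 at 4 in KO batch 1. In WT batch 2, 28 cells were at 1 and 0 at 2. How far the adjustment shaped the SALL4 values per cell was not tested.

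IGF2BP3 had adjusted values that summed to 3 and 5 in WT and to 105 and 29 in KO. In batch 1 these came from 3 of 73 WT and 69 of 77 KO cells, and in batch 2 from 4 of 75 WT and 13 of 76 KO cells. The fold was 6.11 in batch 2, and none is given for batch 1, whose WT sum is no higher than the 3 counts used as the limit for 0. The KO batches differed more from each other in IGF2BP3, at 16.3 and 2.48 CPM, than the KO level of batch 2 differed from WT on the linear scale. In batch 2, 4 KO cells at a value of 5 held most of the sum, and no cell had a value of 2, 3 or 4. The part of the adjustment in these values was not tested.

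ARID3B was lower in KO by 1.97- and 1.90-fold (log2 -0.98 and -0.92), just inside the 2-fold limit in both batches, at 62.1 and 64.8 in WT and 31.5 and 34.2 in KO. HMGA1 had log2 ratios of -0.31 and -0.34, HMGA2 of 0.40 in both batches, IGF2BP1 of 0.42 and 0.37, and IGF2BP2 of 0.36 and 0.22. LIN28B, at -0.33 and -0.12, was the gene nearest to no difference in batch 2. LIN28A went in opposite directions on summed values of 3 against 0 and 2 against 19. The edgeR and DESeq2 fits on the 4 batch sums also called IGF2BP1 and HMGA2 higher and HMGA1 and ARID3B lower, and their p-values rest on batches that agree to within counting error.

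**Figure D4:**
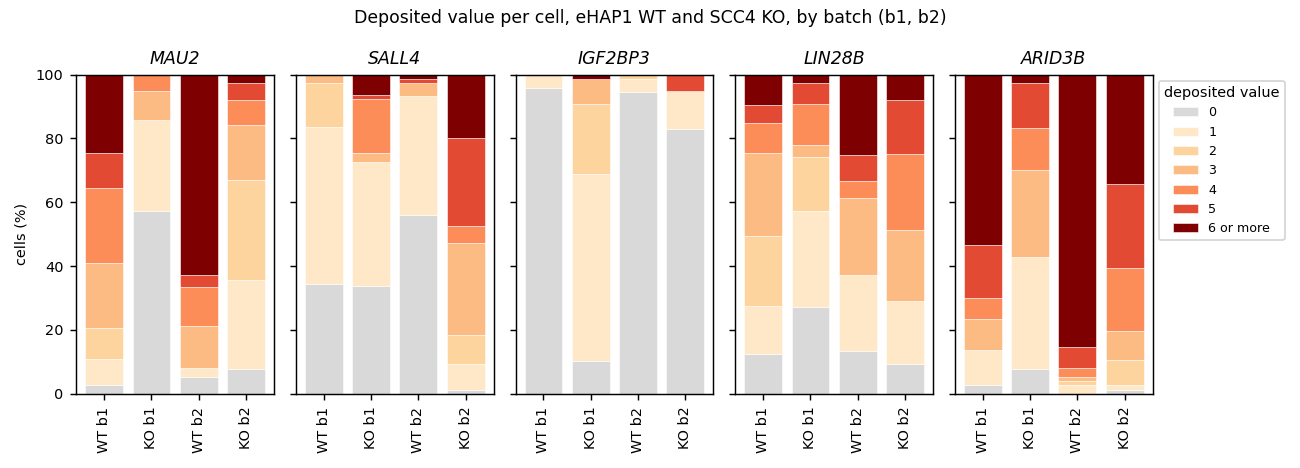
Share of cells (vertical axis, percent) at each deposited value from 0 to 6 or more, for MAU2, SALL4, IGF2BP3, LIN28B and ARID3B in WT and KO eHAP1 cells of batch 1 (b1) and batch 2 (b2). IGF2BP3 is above 0 in 69 of 77 KO cells of batch 1 and 13 of 76 of batch 2, and SALL4 in 75 of 76 KO cells of batch 2.

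Of the surrounding network, 3.70% of the pathway, 10.3% of other let-7 targets and 13.3% of other oncofetal genes were called, beside 15.7% of all genes. Of 27 pathway genes, 1 was higher and 0 lower, HNRNPA1, an RNA-binding protein that acts on let-7 precursors, at 621 and 626 CPM in KO and 290 and 293 in WT. Of 29 other let-7 targets, CCND1 (summed values of 6 and 47 in KO, 1 and 2 in WT) and COIL, a Cajal body protein (log2 2.70 and 1.97), were higher, and IRS2, an insulin receptor substrate, was lower (-1.47 and -1.35). Of 15 other oncofetal and pluripotency genes, the stem cell factor SOX2 (log2 1.14 and 1.43) and PODXL (1.01 in both batches) were higher and 0 were lower. The medians of the 3 lists were 0.05, -0.01 and -0.04, against 0.05 over all genes.

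Cell-to-cell spread was described by the coefficient of variation (CV) of values scaled to the median total of the library. For HMGA2 in LAST-seq HEK293T cells it was 0.157 and 0.178, where counting error alone gives 0.190 and 0.189, and in CEL-seq2 cells it was 0.530 and 0.447 with 0.379 and 0.414 from counting. IGF2BP1 had a CV of 0.350 and 0.339 by LAST-seq (0.299 and 0.291 from counting) and 0.414 and 0.415 by CEL-seq2 (0.166 and 0.194 from counting). At its higher CEL-seq2 level IGF2BP1 thus varied more between cells than counting gives, and the variance was 6.22 and 4.57 times the mean. HMGA1 had 0.227 and 0.218 by LAST-seq (0.1601 and 0.1465 from counting) and 0.404 and 0.296 by CEL-seq2 (0.1444 and 0.1887 from counting). It was thus above counting in both assays. In CEL-seq2 replicate 1 the lowest cell held 4 HMGA1 UMIs and the next lowest 34. SALL4 had 1.60 and 1.34 by CEL-seq2, where counting gives 0.358 and 0.463, over the wells of the barcodes described above. By LAST-seq, at 3 UMIs in each library, it had 1.66 and 1.61 with 1.68 and 1.91 from counting.

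In eHAP1 the abundant genes lay close to counting error, HMGA1 at 0.136 and 0.1000 in WT (0.121 and 0.0946 from counting) and 0.149 and 0.119 in KO. LIN28B, at 0.715 and 0.852 in WT, was above its 0.634 and 0.560 from counting. In KO it was at 0.937 and 0.596, with 0.7785 and 0.567 from counting. The eHAP1 values are adjusted, so that counting error is only a reference for them, and the part of the adjustment in their spread was not tested. Over the 7 genes with UMIs in all these libraries (without LIN28A and IGF2BP3) the median CV was 0.352 in LAST-seq and 0.431 in CEL-seq2 HEK293T cells, 0.449 in WT and 0.515 in KO. After each cell was thinned to 50000 UMIs, the median share of cells with a UMI of these genes was 92.3%, 93.4%, 94.0% and 83.3% in the same order. Between pairs of these genes, Spearman's rho over the cells of an eHAP1 batch ranged from -0.244 to 0.333 with medians near 0, as a description over sparse values of cells that share a library.

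**Figure D5:**
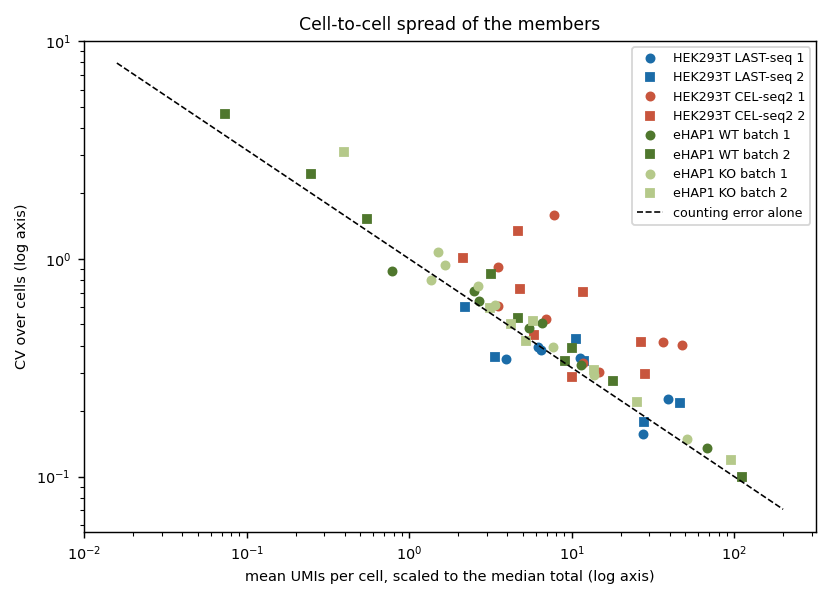
CV over cells (vertical, log axis) against mean UMIs per cell scaled to the median total (horizontal, log axis) for genes of the set with more than 3 UMIs in a single-cell library or batch, with the dashed line for counting error alone. SALL4 by CEL-seq2 (1.60 and 1.34) lies far above the line, as does IGF2BP3 in KO batch 2 (3.11, with 1.59 from counting, on adjusted values). Most LAST-seq points (blue, green) lie nearer to the line.

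Over the 11 UMI libraries and batches, which differ in assay and cell line at once, the genes most like LIN28B in level were MORF4L2, PPP2R5A and SFXN1 (Pearson's r of log2 levels 0.977, 0.966 and 0.966, among 13049 genes). Those most like HMGA2 were GREM1, OAZ1 and ABCG1 (0.993, 0.992 and 0.988). With 11 points in 3 clusters of assay and line, these values describe likeness across assays as much as across cells.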

How the data were processed

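Of 12 samples, 10 were HEK293T and 2 eHAP1. The authors demultiplexed reads, collapsed UMIs by sequence identity with zUMIs and counted exonic reads on GRCh38, after thinning HEK293T reads to a common depth. Gene reads per well still differed between assays. HEK293T files hold UMI counts or read counts per gene and well as deposited. The deposited eHAP1 values are treated as a score, because they are whole numbers made from UMIs that carry traces of an adjustment between batches (the authors name ComBat-seq). No raw UMIs of eHAP1 were analysed here.

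UMIs were summed over the wells of each library or batch and divided by total gene UMIs. Of 35651 identifiers, 35487 (99.5%) matched GENCODE 44. LAST-seq and CEL-seq2 were compared with edgeR 4.0.16 in R 4.3.3 (quasi-likelihood test, TMM, filterByExpr, Benjamini-Hochberg over all genes), and DESeq2 1.42.0 was an alternative. Comparisons with eHAP1 used 2-fold in every pairing (HEK293T) or in both pairs of same-numbered batches (KO), with at least 10 UMIs over the 4 sums, since cells are not replicates. eHAP1 had been planned as counts. Scripts were tested on simulated data. Named genes were the 9 genes, MAU2, up to 3 called genes of each list with the largest fold, and the 3 genes most like LIN28B and HMGA2. Genes and lists were chosen with earlier results of these data known. L1TD1, PRDM14, HBG1 and HBG2 were not analysed here, and 1 planned marker is not reported here. Batch numbers were tested for pairing by the correlation of same-numbered deviations from the genotype means (0.03 over 18848 genes), so that no block was used. Intervals are exact Poisson, 95%, and upper limits for 0 use 3 counts.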

Additional observations from a re-analysis of the deposited data

Results flagged for a closer look

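IGF2BP2 had a log2 ratio of LAST-seq to CEL-seq2 (CPM, without TMM) of -1.89 in HEK293T single cells and 0.30 in lysate, where 35 and 30 UMIs were counted. SALL4 had -3.81 in single cells and 0.36 in lysate, on 11 and 9 UMIs. In both genes each pairing of single-cell libraries lay below 0 and the pair of lysate libraries above it, and the difference between cells and lysate was not tested. For SALL4 the single-cell value holds the barcode pattern of the CEL-seq2 wells.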

How the results depend on the processing

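HEK293T against WT eHAP1 gave 4502 higher genes with no filter on low sums, and 2267 to 3062 higher and 2717 to 3513 lower genes when a library or batch was left out. IGF2BP1 turned to -0.12 with TMM factors and -0.13 with edgeR. LAST-seq against CEL-seq2 gave 365 to 1435 higher and 598 to 1362 lower genes without a replicate, the lowest counts without LAST-seq replicate 2 (365 and 598) and replicate 1 (541 and 785). LIN28B changed sign with no filter (0.0071), without LAST-seq replicate 1 (0.22) and without CEL-seq2 replicate 2 (0.10), and ranged from -0.27 to 0.22 when a replicate was left out. Without the wells of the 2 SALL4 barcodes, 1226 genes were higher and 1528 lower.

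SCC4 KO against WT gave 3289 higher and 3453 lower genes with no filter, 2548 lower with edgeR without a block and 2533 lower with DESeq2. With the batch as a replicate block edgeR gave 2542 higher and 3043 lower. The fold rule gave 1977 to 2967 higher and 1793 to 2486 lower genes on 1 batch. IGF2BP1, HMGA1, HMGA2 and ARID3B passed the threshold in these edgeR and DESeq2 fits, with or without the block, and SALL4 and IGF2BP3 stayed higher in every alternative. Without the 3 WT cells deeper than the deepest KO cell (1 and 2 in the batches, chosen after seeing the data) 1514 and 1377 genes were called, and HEK293T against WT gave 1953 and 2208.

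As deposited, the median CV was 0.434 in LAST-seq and 0.472 in CEL-seq2 HEK293T cells and 0.759 in WT against 0.554 in KO, which turns the order of WT and KO. At 20000 UMIs the median share of cells with a UMI was 66.4%, 72.9%, 70.3% and 53.4% in LAST-seq, CEL-seq2, WT and KO. The rho with the canonical 3′ UTR was -0.161. Values of the genes followed (LIN28A in none, IGF2BP3 and SALL4 not in the first comparison) kept their direction and their side of the threshold in 46, 57 and 76 cases in the 3 comparisons. In the first comparison 6 moved past the threshold, for LIN28B, IGF2BP2 and ARID3B. At these depths SALL4 and LIN28A in HEK293T by LAST-seq rest on 6 UMIs or fewer in 20 cells.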

Other observations

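HMGA2-AS1, a noncoding gene whose exons overlap HMGA2 on the opposite strand, had 0 UMIs in the 4 LAST-seq libraries of HEK293T and 17 and 18 UMIs in the CEL-seq2 single-cell libraries, with 5 in the CEL-seq2 lysate. Its eHAP1 values summed to 5 and 83 in WT batches 1 and 2 and to 1 and 48 in KO batches 1 and 2. The sums thus differed between batches more than between genotypes. IGF2BP2-AS1 had 9 and 4 UMIs in the CEL-seq2 single-cell libraries and 0 in the 4 LAST-seq HEK293T libraries. Whether the counting used strand is not given in the sources used here, so that reads of an antisense gene and of its partner cannot be told apart here.

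Between libraries of a line the well barcodes are shared, 10 of 10 between the LAST-seq replicates and between the CEL-seq2 replicates, 70 between the WT batches and 75 between the KO batches. For the genes of the set other than SALL4, Pearson's r over shared barcodes between CEL-seq2 libraries lay between -0.63 and 0.43.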
